A study of Mus musculus with 8 samples.

Results

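Small leucine-rich proteoglycans are secreted matrix proteins, and 9 of their genes were followed in brown and white preadipocyte lines before and after adipocyte differentiation. The genes were taken by symbol as decorin (Dcn), biglycan (Bgn), lumican (Lum), fibromodulin (Fmod), osteoglycin (Ogn), Prelp, asporin (Aspn), osteomodulin (Omd) and podocan (Podn). All 9 were found among the 21828 gene names shared by the count tables of both lines, and all 9 passed the filter on low counts in each line. The study profiled mRNA to compare brown with white adipocyte differentiation. BAC cells are preadipocytes from the interscapular brown fat of newborn mice, labelled WT and immortalised by retroviral SV40 large T antigen, and 3T3-L1 is a mouse fibroblast line that forms white-type adipocytes. The 4 groups were BAC before induction (day 0) and at day 4, and 3T3-L1 before induction (day 0) and at day 6, with 2 libraries each.

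Day 0 cells in both lines had been held for 2 days past confluence and had not been induced. The later cells had received IBMX, indomethacin, dexamethasone, insulin and T3, followed by insulin with T3 alone, in DMEM with fetal bovine serum. BAC cells carry the large T antigen at both days, and the labels name no separate cultures or clones behind the libraries of a group, so that p-values measure the spread between these libraries, which may be technical. These are bulk RNA samples, in which fewer cells of a type cannot be told apart from less RNA per cell.

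Members of this family carry a core of leucine-rich repeats shaped like a curved ribbon, and most hold chondroitin, dermatan or keratan sulfate chains. They bind collagen fibrils and set their diameter and spacing, and several hold growth factors of the TGF-β family in the matrix or signal through receptors at the cell surface. Fibroblasts, tendon, bone, cartilage and cornea are known for high expression, and in fat they are made mainly by stromal and precursor cells. Class I holds Dcn, Bgn and Aspn, class II holds Lum, Fmod, Prelp and Omd, class III holds Ogn, and class V holds Podn.

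Several of these genes lie side by side in the mouse genome. In the GENCODE annotation of GRCm38, Aspn, Omd and Ogn stand in a row on chromosome 13 (chr13:49544443-49567565, chr13:49582462-49592822 and chr13:49608046-49624501, all on the plus strand), with 14.9 kb between Aspn and Omd and 15.2 kb between Omd and Ogn. Prelp (chr1:133910304-133921414, minus strand) and Fmod (chr1:134037254-134048277, plus strand) are 116 kb apart and point away from each other. Dcn (chr10:97479609-97518143) and Lum (chr10:97565128-97572703) are 47.0 kb apart on the plus strand. Bgn (chrX:73483602-73495933, plus strand) and Podn (chr4:108014791-108096445, minus strand) lie apart from the other members.

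RefSeq promoter sequences of GRCm38.p6, from 250 bases before to 50 bases after the start site, were matched by symbol for 7 of the 9 genes. The promoters of the divergent neighbours Prelp (chr1:133921352-133921651, minus strand) and Fmod (chr1:134037004-134037303, plus strand) are shown because these genes changed in opposite directions. Those of Aspn (chr13:49544193-49544492), Omd (chr13:49582212-49582511) and Ogn (chr13:49607765-49608064) are shown because Aspn and Ogn fell in both lines and Omd lies between them. Omd in both lines and Fmod in BAC passed the filter on low counts only through day 0. Their direction there was thus fixed as lower. Capitals mark matches to the motifs named after the sequences.
Prelp: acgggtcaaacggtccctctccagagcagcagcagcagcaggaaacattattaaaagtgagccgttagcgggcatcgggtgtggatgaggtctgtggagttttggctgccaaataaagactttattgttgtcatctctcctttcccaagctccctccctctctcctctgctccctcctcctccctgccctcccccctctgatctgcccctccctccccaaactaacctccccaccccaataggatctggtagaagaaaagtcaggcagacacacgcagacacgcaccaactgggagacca
Fmod: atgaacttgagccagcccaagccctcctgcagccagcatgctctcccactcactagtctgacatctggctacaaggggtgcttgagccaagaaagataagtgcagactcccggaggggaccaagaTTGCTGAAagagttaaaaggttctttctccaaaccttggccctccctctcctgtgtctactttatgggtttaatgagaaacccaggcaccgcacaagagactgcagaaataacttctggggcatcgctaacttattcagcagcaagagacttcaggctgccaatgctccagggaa
Aspn: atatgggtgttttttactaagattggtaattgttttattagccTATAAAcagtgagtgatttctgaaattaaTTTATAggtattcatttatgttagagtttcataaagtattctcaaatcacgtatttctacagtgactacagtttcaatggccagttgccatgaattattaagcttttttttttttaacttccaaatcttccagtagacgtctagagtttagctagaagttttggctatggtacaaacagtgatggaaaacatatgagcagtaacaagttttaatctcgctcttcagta
Omd: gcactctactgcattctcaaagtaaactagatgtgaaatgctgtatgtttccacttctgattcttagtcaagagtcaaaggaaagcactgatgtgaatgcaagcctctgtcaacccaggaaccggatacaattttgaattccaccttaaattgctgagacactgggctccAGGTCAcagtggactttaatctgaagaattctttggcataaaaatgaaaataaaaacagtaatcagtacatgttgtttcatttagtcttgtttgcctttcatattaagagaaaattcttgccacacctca
Ogn: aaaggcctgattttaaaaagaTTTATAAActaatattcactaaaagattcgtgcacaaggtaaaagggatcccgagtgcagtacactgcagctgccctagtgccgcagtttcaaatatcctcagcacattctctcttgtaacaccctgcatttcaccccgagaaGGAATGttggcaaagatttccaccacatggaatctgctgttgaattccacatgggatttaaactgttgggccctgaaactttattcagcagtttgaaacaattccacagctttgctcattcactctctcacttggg

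Both strands were searched for a TATA box (TATAAA), a GC box (GGGCGG), a TEAD motif (GGAATG) and an AP-1 motif (TGANTCA). A C/EBP motif (TTGCNNAA), the CArG box and AGGTCA, a half-site shared by nuclear receptors, were searched for as well. A full PPAR element was not searched for. The Prelp window held no match to any of these motifs. The Fmod window held 1 C/EBP match, TTGCTGAA, which begins 125 bases before the start site, and 10.8% of 32851 mouse promoters of the same length hold that motif. Aspn held 2 TATA box matches and Ogn held 2 that overlap each other, all of them upstream of the start site, against 13.6% of all promoters with at least 1. Ogn also held the TEAD motif 86 bases before its start, found in 14.7% of promoters. The AGGTCA half-site, found in 16.3%, lay 80 bases before the start in Omd and 134 bases before the start in the second Podn promoter. These matches are not shown to be PPAR elements. The GC box, in 35.7% of promoters, was matched in Bgn and in the upstream Podn promoter. None of the 7 genes searched held the AP-1 motif (7.81% of promoters) or the CArG box (1.63%). GC content was 31.0% for Aspn, 37.7% for Omd and 42.3% for Ogn, below the lower quartile of 45.7% over all promoters, and 51.0% for Fmod and 55.3% for Prelp, near the median of 52.7%.

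The libraries held 9045849 to 10160636 counts each. Adipocyte markers marked the later day in both lines: Fabp4, the fatty acid carrier of adipocytes, went from 105 and 65.5 to 13508 and 12174 CPM in BAC, and from 16.4 and 7.68 to 9212 and 8027 CPM in 3T3-L1. CPM is a gene's count scaled to a fixed library total after TMM factors, which correct for differences in library makeup. Ucp1, the uncoupling protein of brown fat, was at 0 counts at day 0, at 51.1 and 20.9 CPM in the BAC day 4 libraries, and at 2 and 0 counts in those of 3T3-L1 at day 6. The preadipocyte and fibroblast list, with Dlk1, Pdgfra and Thy1, had 14 of 14 tested genes lower in BAC and 13 of 13 lower in 3T3-L1, and its summed level went from between 2196 and 2208 CPM to between 138 and 141 CPM in BAC and from between 6345 and 6559 CPM to between 1024 and 1102 CPM in 3T3-L1. Of these, 3 in BAC and 1 in 3T3-L1 had both later libraries under the cutoff of the filter on low counts (1.04 CPM in BAC and 1.05 CPM in 3T3-L1, before TMM factors). Such genes were tested through day 0 alone and had to come out lower, here and in every list below, so that list counts and medians are descriptions. Each list count stands beside the shares over all tested genes. These were 39.4% lower and 39.1% higher in BAC, and 39.6% and 39.8% in 3T3-L1. The part of the preadipocyte loss in the results for the 9 genes was not tested.

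Most of the family fell with differentiation in both lines, and Prelp rose in both. In BAC, 8 of the 9 genes were lower at day 4 and 1 was higher at an edgeR adjusted p under 0.05, where 39.4% of all 14028 tested genes were lower and 39.1% higher. In 3T3-L1, 6 were lower at day 6, 2 were higher and 1 did not pass, where 39.6% of all 11902 tested genes were lower and 39.8% higher. The median log2 change of the 9 genes was -4.14 in BAC and -1.91 in 3T3-L1, against 0.01 and 0.00 over all tested genes. Fmod and Omd in BAC and Omd in 3T3-L1 passed the filter only through their day 0 libraries. Their direction was therefore fixed as lower, so these counts describe the genes and support nothing further.

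**Figure D1:**
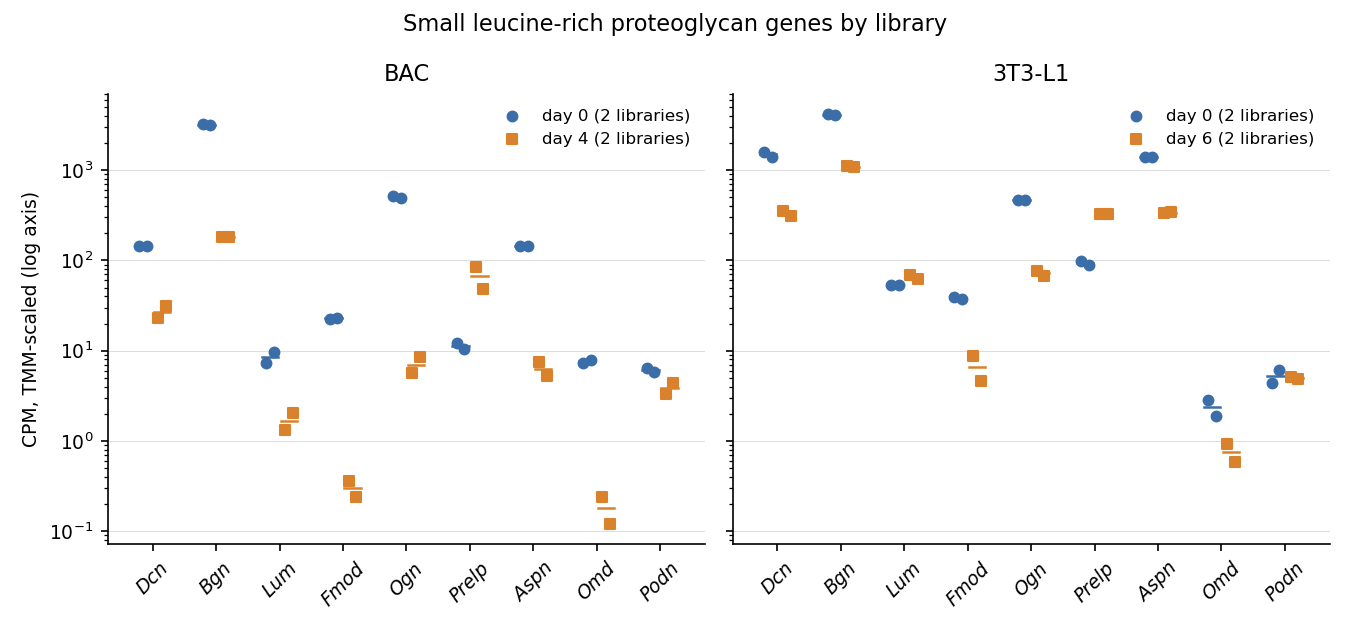
CPM (log axis) of the 9 genes in each library, with circles for day 0, squares for the later day and short lines for group means. Bgn was the highest in counts in every library, 3207 and 3187 CPM in BAC at day 0 and 182 and 180 CPM at day 4, and only Prelp stood clearly above its day 0 level in both lines.

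Biglycan, a class I proteoglycan that binds collagen and can signal through Toll-like receptors, had the most counts of the 9 genes, also per length of transcript. In BAC, Bgn was at 3207 and 3187 CPM at day 0 and at 182 and 180 CPM at day 4. The 3T3-L1 libraries held 4188 and 4066 CPM at day 0, then 1100 and 1090 CPM at day 6. Both day 0 libraries stood far above both later libraries in each line, and replicates differed by at most 1.03-fold. The log2 change of Bgn was -4.14 ± 0.09 in BAC (SE, n = 2 against 2, edgeR adjusted p = 1.49e-14), a 17.7-fold decrease, and -1.91 ± 0.05 in 3T3-L1 (edgeR adjusted p = 1.3e-17), a 3.77-fold decrease.

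Decorin, which decorates type I collagen fibrils and binds TGF-β, fell in both lines. Dcn was at 144 and 145 CPM in BAC at day 0 and at 23.0 and 31.2 CPM at day 4. The 3T3-L1 values were 1589 and 1413 CPM at day 0, then 353 and 309 CPM at day 6. The groups did not overlap in either line. The log2 change was -2.41 ± 0.11 in BAC (edgeR adjusted p = 3.82e-11) and -2.18 ± 0.07 in 3T3-L1 (edgeR adjusted p = 6.49e-17).

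Asporin, which binds TGF-β and restrains its signalling in cartilage, lacks the usual glycosaminoglycan chain. Aspn was at 143 and 146 CPM in BAC at day 0 and at 7.41 and 5.20 CPM at day 4. In 3T3-L1, 1402 CPM was measured in both day 0 libraries, with 336 and 341 CPM at day 6. Again every day 0 library lay above every later one. The log2 change was -4.52 ± 0.13 in BAC (edgeR adjusted p = 1.47e-13) and -2.05 ± 0.05 in 3T3-L1 (edgeR adjusted p = 2.45e-18). Aspn and Dcn were counted almost equally in BAC at day 0, with Aspn to Dcn count ratios of 0.998 and 1.01, and these ratios were 0.323 and 0.167 at day 4. In 3T3-L1 they were 0.882 and 0.993 at day 0 and 0.954 and 1.10 at day 6.

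Osteoglycin, the class III member first purified from bone, had among the largest falls in the family. Ogn was at 515 and 496 CPM in BAC at day 0 and at 5.62 and 8.46 CPM at day 4, a log2 change of -6.16 ± 0.13 (edgeR adjusted p = 1.15e-14) and a 71.7-fold decrease. In 3T3-L1 it was at 470 and 471 CPM at day 0 and at 77.4 and 67.6 CPM at day 6, a log2 change of -2.70 ± 0.06 (edgeR adjusted p = 5.01e-19). The lines thus had day 0 values close to each other on this scale, although levels were not tested between lines because line, table and day differ together.

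Omd lies between Aspn and Ogn and encodes a keratan sulfate proteoglycan that binds bone mineral. It was scarce in both lines. In BAC it had 82 and 88 counts at day 0 and 2 and 1 counts at day 4, a library-scaled ratio of day 0 to day 4 of 42.6 (exact 95% interval 14.3 to 208, for counting error only), with an edgeR adjusted p = 1.88e-08. In 3T3-L1 it had 30 and 20 counts at day 0 and 8 and 5 counts at day 6, a log2 change of -1.63 ± 0.41 (edgeR adjusted p = 0.00122). Omd passed the filter on low counts through day 0 alone in both lines. Its direction was thus fixed in advance, and both adjusted p-values are descriptions. The 3T3-L1 call was lost without day 6 replicate 2, where the log2 change was -1.34 with an edgeR adjusted p = 0.072. Aspn, Omd and Ogn lie within the span of Cenpp, a kinetochore gene on the opposite strand, which shares 7 exon bases with Aspn and 0 with the others. Cenpp itself fell from 351 and 353 counts to 133 and 119 in BAC (log2 change -1.07 ± 0.12, edgeR adjusted p = 8.27e-07) and from 2438 and 2624 counts to 537 and 574 in 3T3-L1 (log2 change -1.89 ± 0.06, edgeR adjusted p = 1.86e-16). Because the sources used here do not give the strand of the counting, reads of Cenpp and of these genes cannot be told apart where they overlap. Of 6 genes next to members on the chromosome, 3 were tested in BAC (1 higher, 2 lower) and 5 in 3T3-L1 (1 higher, 3 lower). Nol8, a nucleolar gene beside the cluster, rose by 0.54 ± 0.13 in BAC (edgeR adjusted p = 0.00189) and by 1.09 ± 0.09 in 3T3-L1 (edgeR adjusted p = 1.26e-09) on the log2 scale. Its BAC call was lost with scaling to library size alone, with no filter on low counts and without day 0 replicate 1.

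Fibromodulin binds type I collagen next to its cross-linking sites and is abundant in tendon and cartilage. Fmod was at 22.6 and 23.1 CPM in BAC at day 0, from 251 and 255 counts, and at 0.359 and 0.242 CPM at day 4, from 3 and 2 counts. The 3T3-L1 libraries held 39.9 and 37.1 CPM before induction and 8.69 and 4.65 CPM after it. The BAC day 4 libraries were near the limit of detection, whereas those of 3T3-L1 at day 6 were not, and the latter differed 1.87-fold between themselves. The log2 change was -6.19 ± 0.28 in BAC (edgeR adjusted p = 3.48e-11) and -2.52 ± 0.16 in 3T3-L1 (edgeR adjusted p = 6.65e-12). The library-scaled ratio of day 0 to day 4 in BAC was 76.0 (exact 95% interval 32.4 to 235, for counting error only). That interval, on 5 counts at day 4, is wider than the SE conveys. In BAC Fmod passed the filter on low counts through day 0 alone. Its direction there was fixed in advance, and the BAC adjusted p is a description.

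Prelp, a class II protein with a basic amino terminus that binds heparan sulfate and links basement membranes to collagen, was the member that rose in both lines. In BAC it was at 12.3 and 10.4 CPM at day 0 and at 85.1 and 48.7 CPM at day 4. In 3T3-L1 it was at 99.5 and 90.2 CPM at day 0 and at 329 and 330 CPM at day 6. Both later libraries stood above both day 0 libraries in each line, but the BAC day 4 libraries differed 1.75-fold. The rise was 2.56 ± 0.21 on the log2 scale in BAC (edgeR adjusted p = 4.09e-08), or 5.90-fold, and 1.79 ± 0.06 in 3T3-L1 (edgeR adjusted p = 1.01e-16), or 3.47-fold. The antisense gene Gm15851 covers 9.68% of the exon bases of Prelp, and its own counts were not analysed here.

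The neighbours Prelp and Fmod thus parted with differentiation. The count ratio of Prelp to Fmod was 0.542 and 0.451 in BAC at day 0 and 237 and 202 at day 4, the latter over 3 and 2 Fmod counts. In 3T3-L1 the ratio was 2.50 and 2.43 at day 0 and 37.8 and 70.8 at day 6. The ratio was higher in each later library than in each day 0 library of its line.

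Lumican, a keratan sulfate proteoglycan of cornea and other fibrous matrices, fell in BAC but not in 3T3-L1. In BAC, Lum was at 7.30 and 9.77 CPM at day 0 and at 1.32 and 2.06 CPM at day 4, a log2 change of -2.33 ± 0.29 (edgeR adjusted p = 2.89e-06). In 3T3-L1 it was at 52.8 and 53.7 CPM at day 0 and at 69.3 and 62.6 CPM at day 6, a log2 change of 0.31 ± 0.07 (edgeR adjusted p = 0.000548). The 3T3-L1 rise was small and rested on the scaling. It was 0.018 with library size alone (edgeR adjusted p = 0.821), a scaling that moved the median of all genes by -0.29, and 0.15 with upper-quartile factors (edgeR adjusted p = 0.0575), which moved that median by -0.16. Dcn and Lum lie next to each other, and their count ratio was 19.7 and 14.8 in BAC at day 0 and 17.5 and 15.2 at day 4, whereas in 3T3-L1 it was 30.1 and 26.3 at day 0 and 5.09 and 4.94 at day 6.

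Podocan, the class V member, which binds type I collagen and restrains smooth muscle growth in mice, changed little. In BAC it was at 6.49 and 5.88 CPM at day 0 and at 3.35 and 4.35 CPM at day 4, a log2 change of -0.68 ± 0.23 (edgeR adjusted p = 0.0144). In 3T3-L1 it was at 4.35 and 6.07 CPM at day 0 and at 5.10 and 4.89 CPM at day 6, a log2 change of -0.06 ± 0.22 that did not pass (edgeR adjusted p = 0.803), and the groups overlapped. The span of Podn overlaps Scp2, a sterol carrier gene on the same strand, with 0 shared exon bases. Scp2 itself went from 860 and 888 counts to 4648 and 4621 in BAC and from 985 and 889 counts to 9902 and 9840 in 3T3-L1, opposite in direction to Podn in BAC, and its part in the Podn counts was not tested. The BAC call of Podn was lost without day 0 replicate 1 (-0.63, edgeR adjusted p = 0.0822), without day 4 replicate 1 (-0.51, edgeR adjusted p = 0.0947) and with DESeq2 (-0.70, adjusted p = 0.0927).

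The BAC day 4 libraries did not move apart in 1 direction for the whole family. Replicate 1 was the lower for Dcn, by 1.36-fold, for Lum, by 1.56-fold, and for Ogn, by 1.51-fold, and the higher for Prelp, by 1.75-fold, and for Aspn, by 1.43-fold. Bgn differed by only 1.01-fold. Over all genes this pair also had the widest spread, with a chi-square per gene of 5.17, against 1.87 to 2.63 for the other pairs, where counting noise alone gives about 1. Replicate 1 had 51.1 CPM of Ucp1 and 290 CPM of Cidea, which enlarges lipid droplets, and replicate 2 had 20.9 and 230 CPM. The part of this spread in the member values was not tested.

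**Figure D2:**
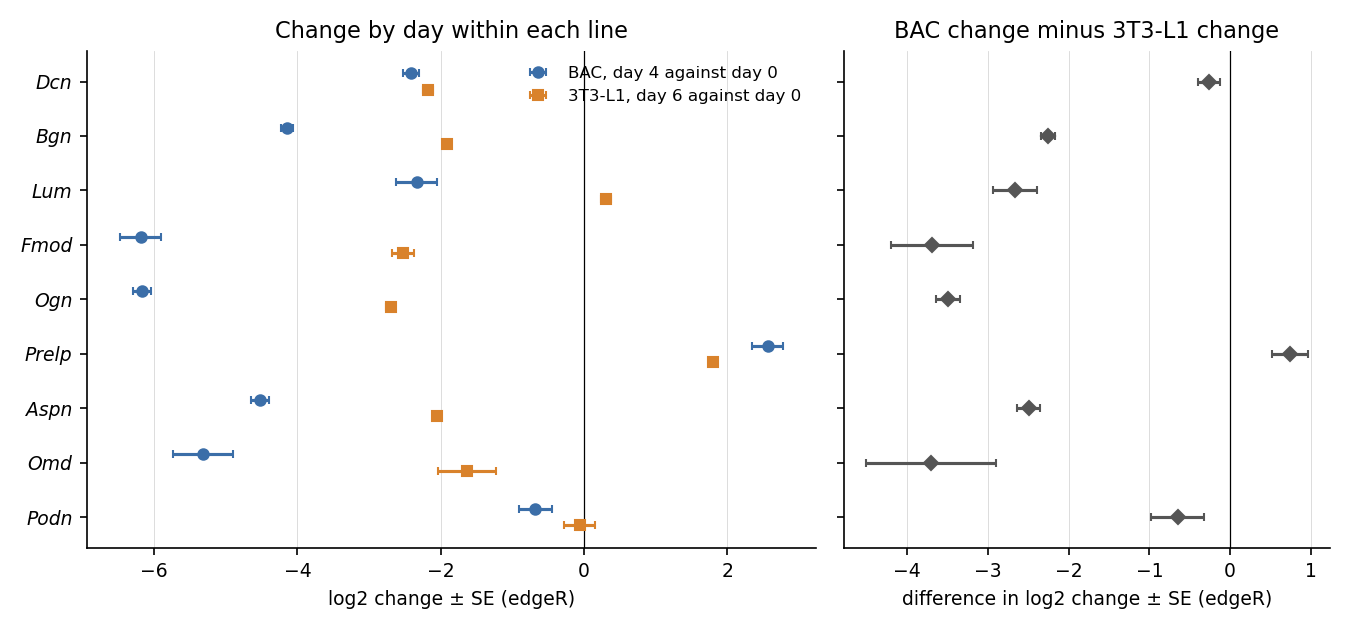
Log2 change ± SE of each gene by day within BAC (circles) and 3T3-L1 (squares) on the left, and the BAC change minus the 3T3-L1 change ± SE (diamonds) on the right. On the right, 7 values passed the test, from -3.70 for Omd to 0.74 for Prelp, and Dcn (-0.26) and Podn (-0.65) did not. The SE derives from the test statistic and understates the counting error of Fmod and Omd in BAC.

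Bgn, Aspn and Ogn fell in both lines, and fell further in BAC than in 3T3-L1. The difference of the changes, BAC minus 3T3-L1, was tested in 1 fit over the 8 libraries. It was lower than 0 for 6 genes, higher for 1 and not past the test for 2, where 33.7% of all 12863 tested genes were lower and 25.3% higher. The 6 include Fmod and Omd, which passed the filter in BAC only through day 0, and Lum, which did not fall in 3T3-L1. The median difference was -2.49 for the 9 genes and -0.11 for all genes. Lower differences were not particular to this family. Of the collagens listed below, 9 of 11 were lower and 0 higher (median -3.50). Ligands and matrix partners had 14 of 17 lower and 1 higher (median -2.88). Proteases had 9 of 11 lower and 0 higher (median -1.61), and preadipocyte genes 11 of 14 lower and 1 higher (median -1.84). Since line, table and sampling day differ together, none of these differences can be told apart from the 2 extra days of 3T3-L1 culture.

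By gene, the difference was -2.26 ± 0.09 for Bgn (edgeR adjusted p = 1.77e-16) and -2.49 ± 0.14 for Aspn (edgeR adjusted p = 1.52e-13) in class I. It was -3.49 ± 0.15 for Ogn (edgeR adjusted p = 5.85e-16), -3.69 ± 0.51 for Fmod (edgeR adjusted p = 8.89e-07), -3.70 ± 0.81 for Omd (edgeR adjusted p = 0.000356) and -2.67 ± 0.27 for Lum (edgeR adjusted p = 6.42e-09). The Fmod and Omd differences rest on 5 and 3 BAC counts at day 4, and their adjusted p-values are descriptions.

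Dcn was the class I gene whose fall was not shown to differ, with a difference of -0.26 ± 0.14 (edgeR adjusted p = 0.109). Without BAC day 4 replicate 2 it was -0.50 (edgeR adjusted p = 0.00287), and without 3T3-L1 day 0 replicate 2 it was -0.35 (edgeR adjusted p = 0.0491). For Podn the difference was -0.65 ± 0.33 (edgeR adjusted p = 0.0943), and without 3T3-L1 day 0 replicate 3 it was -0.90 (edgeR adjusted p = 0.0388). The rise of Prelp was larger in BAC by 0.74 ± 0.22 (edgeR adjusted p = 0.0055), but this call was lost without BAC day 4 replicate 1 (0.28, edgeR adjusted p = 0.0817), with no filter on low counts (0.74, edgeR adjusted p = 0.115) and with DESeq2 (0.81, adjusted p = 0.0999).

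Summed over the 9 genes, the family took a smaller share of the mRNA after differentiation. At day 0 Bgn held 79.0% of the family's counts on average in BAC and 53.6% in 3T3-L1, so this sum mostly follows Bgn. The 9 genes held 0.444% and 0.438% of all counts in BAC at day 0 and 0.0279% and 0.0256% at day 4. In 3T3-L1 they held 0.864% and 0.836% at day 0 and 0.206% and 0.200% at day 6. Wilson 95% intervals, which cover counting error only, reached from 0.0269% to 0.0290% and from 0.0246% to 0.0267% in the BAC day 4 libraries. As library values, both day 0 shares lay above both later shares in each line.

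**Figure D3:**
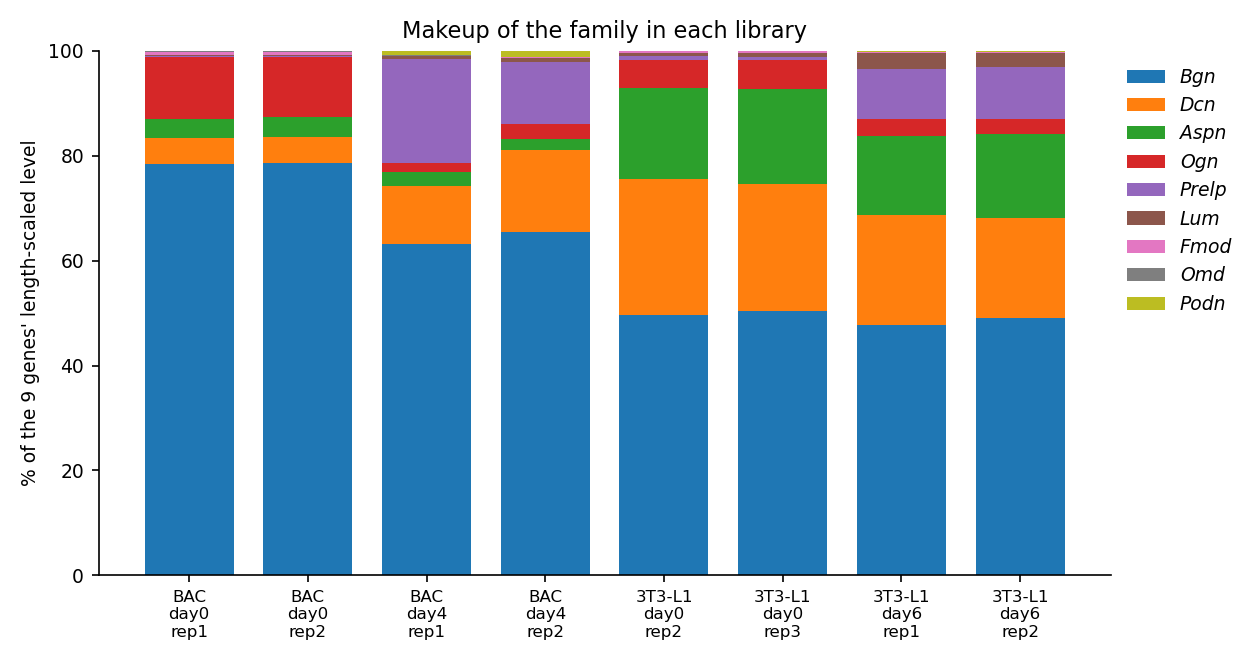
Share of each gene in the summed length-scaled level of the 9 genes, as a stacked bar per library. Bgn made up the largest part of every bar, from 78.6% on average (BAC, day 0) to 48.3% (3T3-L1, day 6), and Prelp went from 0.186% to 15.8% in BAC and from 0.769% to 9.72% in 3T3-L1.

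Its makeup changed as well. Scaled to the length of the principal transcript, Prelp made up 0.186% ± 0.0205 (SD, n = 2) of the summed level of the 9 genes in BAC at day 0 and 15.8% ± 5.58 at day 4, and 0.769% ± 0.0290 and 9.72% ± 0.276 in 3T3-L1. Bgn was at 78.6% ± 0.0966 and 64.4% ± 1.63 in BAC, and at 50.1% ± 0.546 and 48.3% ± 0.943 in 3T3-L1. Ogn went from 11.7% ± 0.249 to 2.37% ± 0.756 in BAC. Lum went from 0.639% ± 0.0275 to 2.87% ± 0.130 in 3T3-L1. Such shares are tied to each other, since a fall of Bgn alone raises every other share.

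The order of the genes, as CPM per kb of principal transcript, was led by Bgn in each group. In BAC at day 0 Bgn was at 1322 CPM per kb, followed by Ogn at 197, Dcn at 82.0, Aspn at 62.1, Fmod at 7.32, Lum at 3.49, Omd at 3.41, Prelp at 3.13 and Podn at 1.95 CPM per kb. The libraries of Lum overlapped those of Omd, and those of Omd overlapped those of Prelp. At day 4 the order was Bgn (74.7 CPM per kb), Prelp (18.5), Dcn (15.4), Ogn (2.74), Aspn (2.71), Podn (1.21), Lum (0.688), Fmod (0.0962) and Omd (0.0800). There Prelp overlapped Dcn, Ogn overlapped Aspn and Fmod overlapped Omd.

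In 3T3-L1 Dcn stood above Ogn at both days. At day 0 Bgn was at 1706 CPM per kb, Dcn at 854, Aspn at 602, Ogn at 183, Prelp at 26.2, Lum at 21.8, Fmod at 12.3, Podn at 1.64 and Omd at 1.05 CPM per kb, with no overlap between neighbours in the order. At day 6 Bgn was at 453 CPM per kb, Dcn at 188, Aspn at 145, Prelp at 91.0, Ogn at 28.3, Lum at 26.9, Fmod at 2.14, Podn at 1.57 and Omd at 0.335 CPM per kb. Ogn overlapped Lum, and Fmod overlapped Podn.

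For each gene, the gene nearest to it in the plane of both log2 changes was sought among 9309 genes, with the distance given in log2 units. Lum was closest to P4hb, a protein disulfide isomerase and subunit of prolyl hydroxylase, at -2.33 in BAC and 0.30 in 3T3-L1 (distance 0.01). Bgn was closest to Adamts2, which removes the amino propeptide of fibrillar procollagens, at -4.19 and -1.90 (distance 0.05). Dcn was closest to Mmp23, a membrane-bound metalloprotease, at -2.37 and -2.21 (distance 0.06). Fmod was closest to Sema3a, an axon guidance ligand (distance 0.17), Ogn to Pcdh18, a protocadherin (distance 0.21), and Aspn to Irgm1, an interferon-induced GTPase (distance 0.04). The nearest genes of Omd, Podn and Prelp were Apba1, Tmem19 and D10Jhu81e, at distances of 0.07, 0.01 and 0.06. The likeness rests on 2 changes over 8 libraries. For Lum, Podn and Omd the distance is well under the SE of the BAC change (0.29, 0.23 and 0.41). Which gene is nearest to them is therefore not settled.

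**Figure D4:**
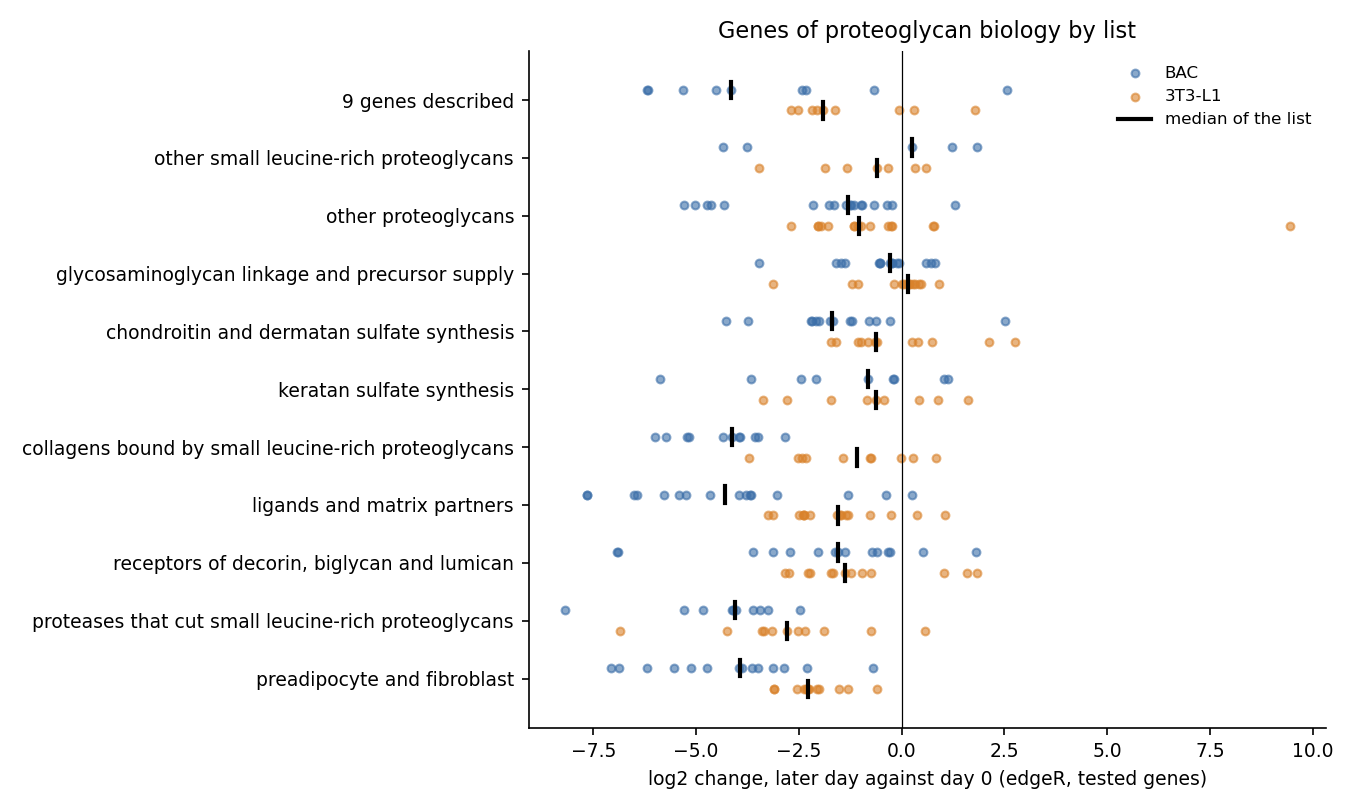
Log2 change of every tested gene in the lists around these proteoglycans, for BAC and 3T3-L1, with black bars at list medians. Collagens, matrix partners, proteases and preadipocyte genes lay mostly left of 0 in both lines, with medians of -4.12, -4.31, -4.06 and -3.92 in BAC, whereas the glycosaminoglycan linkage list lay near 0. The medians include genes tested through day 0 alone.

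Other members of the wider family moved in both directions. Of 9 further genes, 5 were tested in BAC, with 2 higher and 2 lower (median log2 change 0.26), and 7 in 3T3-L1, with 1 higher and 4 lower (median -0.61), against medians of 0.01 and 0.00 over all genes. Of the lower genes, 2 in BAC and 1 in 3T3-L1 were tested through day 0 alone. Tsukushi (Tsku), a class IV protein that tunes BMP and Wnt signals, was at 32.0 CPM in both BAC libraries at day 0 and at 112 and 117 CPM at day 4. In 3T3-L1 it was at 26.9 and 27.8 CPM at day 0 and at 21.1 and 22.3 CPM at day 6. Tsku therefore rose by 1.84 ± 0.08 on the log2 scale in BAC (edgeR adjusted p = 3.93e-11) and fell in 3T3-L1 (log2 change -0.33 ± 0.10, edgeR adjusted p = 0.005), and the difference of 2.15 ± 0.13 passed the test (edgeR adjusted p = 2.56e-13). The 3T3-L1 call of Tsku was lost with DESeq2 and without day 6 replicate 1. Chadl, a chondroadherin-like collagen binder, rose in BAC by 1.22 ± 0.19 (edgeR adjusted p = 3.67e-05) and in 3T3-L1 by 0.60 ± 0.22 (edgeR adjusted p = 0.0171) on the log2 scale. The 3T3-L1 call of Chadl was lost with library size alone, upper-quartile factors, DESeq2 and no filter, and without day 0 replicate 3 or day 6 replicate 1. The remaining genes past the test were all lower, and were at under 13 CPM in every library, where Chadl reached 13.8 CPM. Ecm2 had log2 changes of -3.75 ± 0.28 in BAC and -1.87 ± 0.25 in 3T3-L1, and Podnl1 of -4.35 ± 0.34 and -1.34 ± 0.21. Kera had -3.47 ± 0.46 in 3T3-L1. Ecm2 and Podnl1 in BAC and Kera in 3T3-L1 are the ones tested through day 0 alone.

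Most of the larger proteoglycans were lower at the later day as well. Of 27 listed, 18 were tested in BAC, with 16 lower and 1 higher (median -1.31), and 16 in 3T3-L1, with 13 lower and 3 higher (median -1.03). Through day 0 alone, 2 were tested in BAC and 1 in 3T3-L1. Over all tested genes, 39.4% were lower and 39.1% higher in BAC, and 39.6% and 39.8% in 3T3-L1. Versican (Vcan), the large hyaluronan-binding proteoglycan of loose matrix, fell in both lines (log2 change -5.02 ± 0.10 in BAC and -2.04 ± 0.06 in 3T3-L1) from 1518 and 1638 CPM to 46.9 and 50.5 CPM and from 1290 and 1411 CPM to 320 and 337 CPM. Sdc3, a cell surface heparan sulfate proteoglycan, fell likewise (-4.73 ± 0.11 and -2.03 ± 0.07), and Cd44, the hyaluronan receptor, fell likewise (-4.63 ± 0.13 and -2.69 ± 0.08). Against the majority, the syndecan Sdc4 rose by 1.30 ± 0.10 on the log2 scale in BAC, whereas its log2 change in 3T3-L1 was -0.23 ± 0.06. That small fall was lost without 3T3-L1 day 6 replicate 1. Col18a1, the basement membrane collagen that carries heparan sulfate, rose by 0.80 ± 0.06 in 3T3-L1 and fell in BAC (log2 change -0.35 ± 0.09). Both differences between the lines passed the test, 1.5 ± 0.12 for Sdc4 (edgeR adjusted p = 5.37e-11) and -1.17 ± 0.11 for Col18a1 (edgeR adjusted p = 1.44e-09). A further point outside the naming rule, seen in the plot of lists and chosen after its value was seen, is the brain proteoglycan Ncan, which was at 0 counts in 3T3-L1 at day 0 and at 10.7 and 7.45 CPM at day 6, and which was tested through day 6 alone.

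Enzymes that build the sugar chains were listed by step. Of all tested genes, 39.4% were lower and 39.1% higher in BAC, and 39.6% and 39.8% in 3T3-L1. For the linkage and precursor steps, 8 of 15 tested genes were lower and 3 higher in BAC (median -0.28, 1 tested through day 0 alone), and 4 of 14 lower and 5 higher in 3T3-L1 (median 0.16). Pxylp1, a phosphatase that releases chain growth on the linkage xylose, fell in both lines (log2 change -3.48 ± 0.14 in BAC and -3.13 ± 0.21 in 3T3-L1), Ugdh, which makes UDP-glucuronic acid, fell likewise (-1.37 ± 0.08 and -1.21 ± 0.05), and Papss2, which makes the sulfate donor, fell likewise (-1.47 ± 0.12 and -1.06 ± 0.11). Slc35b2, the Golgi carrier of that donor, rose by 0.80 ± 0.08 in BAC and by 0.46 ± 0.06 in 3T3-L1 on the log2 scale.

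For chondroitin and dermatan sulfate, the chains of Dcn and Bgn, 13 of 14 tested genes were lower and 1 higher in BAC (median -1.71, 2 tested through day 0 alone), and 7 of 12 lower and 5 higher in 3T3-L1 (median -0.62). Chsy1, a chondroitin polymerase, was at 65.7 and 70.0 CPM in BAC at day 0 and at 4.78 and 5.44 CPM at day 4, while in 3T3-L1 it was at 52.0 and 58.0 CPM at day 0 and at 71.6 and 72.8 CPM at day 6. The difference in its change was -4.15 ± 0.15 (edgeR adjusted p = 2.83e-17). Dsel, an epimerase of dermatan sulfate, fell in both lines (log2 change -4.28 ± 0.19 in BAC and -1.59 ± 0.09 in 3T3-L1). Csgalnact1, which starts chondroitin chains, fell in both lines (log2 change -1.68 ± 0.16 in BAC and -1.72 ± 0.08 in 3T3-L1), and the sulfotransferase Chst15 rose in both, by 2.50 ± 0.10 and 2.75 ± 0.26 on the log2 scale. The sulfotransferase Chst11 rose by 2.13 ± 0.08 on the log2 scale in 3T3-L1 and fell in BAC (log2 change -0.28 ± 0.08), and its changes differed by -2.43 ± 0.11 (edgeR adjusted p = 3.7e-15).

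For keratan sulfate, the chain of Lum, Fmod and Omd, 6 of 9 tested genes were lower in each line, with 2 higher in BAC (median -0.81, 2 tested through day 0 alone) and 3 higher in 3T3-L1 (median -0.62). Chst2, a sulfotransferase acting on N-acetylglucosamine and in BAC one of the genes tested through day 0 alone, was at 20.6 and 16.3 CPM in BAC at day 0 and at 0.359 and 0.242 CPM at day 4, and at 93.7 and 92.0 CPM in 3T3-L1 at day 0 and at 8.34 and 9.43 CPM at day 6. Among sialyltransferases that can cap these chains, St3gal1 fell in both lines (log2 change -2.44 ± 0.09 in BAC and -1.73 ± 0.06 in 3T3-L1), St3gal2 fell likewise (-2.08 ± 0.08 and -0.62 ± 0.05), and St3gal3 rose by 1.13 ± 0.10 and 1.60 ± 0.10 on the log2 scale.

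The collagens that these proteoglycans bind were lower for 11 of 11 tested genes in BAC (median -4.12), and in 3T3-L1 7 of 10 were lower and 2 higher (median -1.09). Col2a1 and Col14a1 in BAC and Col14a1 in 3T3-L1 were tested through day 0 alone. The shares over all tested genes were 39.4% lower and 39.1% higher in BAC, and 39.6% and 39.8% in 3T3-L1. These shares also stand beside the partner, receptor and protease counts below. Col1a1, the main chain of type I collagen, was at 8271 and 8294 CPM in BAC at day 0 and at 133 and 129 CPM at day 4, and at 9638 and 9304 CPM in 3T3-L1 at day 0 and at 1701 and 1621 CPM at day 6. Col1a2, its partner chain, fell in both lines (log2 change -5.74 ± 0.10 in BAC and -2.33 ± 0.06 in 3T3-L1), Col3a1 fell likewise (-5.21 ± 0.10 and -1.42 ± 0.06), and so did Col12a1, a collagen on fibril surfaces (-3.56 ± 0.10 and -3.70 ± 0.08). Col6a2, a chain of the beaded type VI collagen to which Bgn binds, went from 4552 and 4701 CPM to 311 and 295 CPM in BAC but from 1719 and 1733 CPM to 3168 and 2952 CPM in 3T3-L1. Its changes differed by -4.79 ± 0.10 (edgeR adjusted p = 6.77e-22).

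Ligands and matrix partners were lower for 15 of 16 tested genes in BAC (median -4.31) and for 13 of 16 in 3T3-L1, where 2 were higher (median -1.54). Through day 0 alone, 4 were tested in BAC, among them Wisp1 and Ctgf, and 2 in 3T3-L1. Tnc, the matrix protein tenascin C, fell in both lines (log2 change -7.64 ± 0.17 in BAC and -2.38 ± 0.12 in 3T3-L1). Wisp1, a matricellular protein that binds Dcn and Bgn, fell in both lines (log2 change -6.52 ± 0.20 in BAC and -2.50 ± 0.10 in 3T3-L1), and Ctgf, a matricellular growth regulator, went from 21.2 and 22.5 CPM to 0 and 0.484 CPM in BAC and from 3.50 and 2.75 CPM to 0.348 and 0.349 CPM in 3T3-L1. Lox, the lysyl oxidase that cross-links collagen, fell in both lines (log2 change -5.24 ± 0.10 in BAC and -2.39 ± 0.05 in 3T3-L1). Of the TGF-β ligands, Tgfb3 fell in both lines (log2 change -3.66 ± 0.17 in BAC and -2.40 ± 0.09 in 3T3-L1), while Tgfb2 rose in 3T3-L1 by 1.05 ± 0.07 on the log2 scale, from 37.5 and 40.1 CPM before induction to 78.7 and 81.9 CPM. In BAC Tgfb2 went from 36.6 and 34.4 CPM to 1.55 and 1.21 CPM, and the difference of its changes was -5.74 ± 0.20 (edgeR adjusted p = 6.89e-18). Outside the naming rule, Tgfb1 fell little in BAC, from 70.2 and 67.3 CPM to 56.9 and 48.0 CPM (log2 change -0.39 ± 0.10). In 3T3-L1 its log2 change was 0.37 ± 0.10, where library size alone moved the median of all genes by -0.29.

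Receptors of decorin, biglycan and lumican were lower for 12 of 15 tested genes and higher for 2 in BAC (median -1.55, 2 tested through day 0 alone), and lower for 10 of 13 and higher for 3 in 3T3-L1 (median -1.39). Egfr, a decorin receptor, fell in both lines (log2 change -3.61 ± 0.12 in BAC and -2.22 ± 0.08 in 3T3-L1), and Erbb2, of the same receptor family, fell likewise (-3.13 ± 0.13 and -2.83 ± 0.10). Kdr, a VEGF receptor, was at 15.3 and 16.5 CPM in BAC at day 0 and at 0 and 0.242 CPM at day 4. Tlr2, an innate receptor of Bgn, went from 8.92 and 8.69 CPM to 0 and 0.121 CPM in BAC and fell in 3T3-L1 (log2 change -2.74 ± 0.12). Kdr and Tlr2 are the BAC receptors tested through day 0 alone. Met, the hepatocyte growth factor receptor that Dcn also binds, rose in both lines, on the log2 scale by 0.52 ± 0.14 in BAC (edgeR adjusted p = 0.003) and by 1.84 ± 0.06 in 3T3-L1 (edgeR adjusted p = 6.79e-16). The BAC call of Met was lost with scaling to library size alone, with no filter on low counts, without day 0 replicate 1 and without day 4 replicate 2. Outside the naming rule, the innate receptor Tlr4 and the TGF-β receptor Tgfbr1 also rose in 3T3-L1 (log2 change 1.02 ± 0.07 and 1.58 ± 0.06). Both fell in BAC (-0.60 ± 0.16 and -1.55 ± 0.10). Their changes differed by -1.64 ± 0.16 (edgeR adjusted p = 3.68e-09) and -3.16 ± 0.11 (edgeR adjusted p = 1.42e-17).

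Proteases that cut these proteoglycans were lower for 10 of 10 tested genes in BAC (median -4.06) and for 10 of 11 in 3T3-L1 (median -2.79). Tll1 and Mmp9 in BAC and Tll1 and Mmp3 in 3T3-L1 were tested through day 0 alone. Mmp14, the membrane-type metalloprotease, fell in both lines (log2 change -4.84 ± 0.10 in BAC and -3.15 ± 0.06 in 3T3-L1). Adamts4, an aggrecanase, fell likewise (-4.14 ± 0.19 and -2.79 ± 0.18). Pcolce, an enhancer of procollagen processing that the list also holds, fell in both lines as well (-4.11 ± 0.10 and -2.52 ± 0.05). Of the gelatinases, Mmp2 fell in both lines (log2 change -3.62 ± 0.09 in BAC and -3.39 ± 0.06 in 3T3-L1), and Mmp9 fell in 3T3-L1 (log2 change -4.25 ± 0.24) and went from 2.97 and 2.71 CPM to 0 and 0.121 CPM in BAC. All of these list changes passed the test at an edgeR adjusted p under 0.05.

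Markers of tissues in which this family is abundant were measured beside the members. Among all tested genes, 39.4% were lower and 39.1% higher in BAC, and 39.6% and 39.8% in 3T3-L1. The list of tendon, cartilage and bone cells had 7 of 12 tested genes lower and 4 higher in BAC, and 6 of 11 lower and 3 higher in 3T3-L1, and its summed level went from between 235 and 247 CPM to between 93.3 and 99.6 CPM in BAC and from between 262 and 266 CPM to 158 CPM in each day 6 library of 3T3-L1. The largest part of the BAC sum at day 0 was Egr1. It went from 132 and 118 CPM to 32.5 and 26.5 CPM, so the BAC sum mostly follows that gene. Sox9, the cartilage regulator, was lower in both lines, going from 38.3 and 33.0 to 1.43 and 1.57 CPM in BAC and from 68.0 and 73.3 to 12.2 CPM in each day 6 library of 3T3-L1. Alpl, the alkaline phosphatase of mineralising cells, was higher in both lines, going from 2.70 and 1.99 to 19.1 and 16.0 CPM in BAC and from 0.189 and 0.0948 to 14.6 and 14.4 CPM in 3T3-L1. Col11a2 was also higher in both lines, Sox6 and Comp were higher in BAC, and Sox5 was higher in 3T3-L1, which completes the higher genes of that list. The call of Comp was lost with DESeq2, without BAC day 0 replicate 2 and without BAC day 4 replicate 2. In BAC 4 of the lower genes were tested through day 0 alone and Sox6 through day 4 alone, and in 3T3-L1 1 of the lower genes was tested through day 0 alone and Alpl through day 6 alone. Sp7 and Bglap, which define bone-forming cells, never exceeded 6 counts in a library. Other genes of that list were present at day 0 and fell. Runx2 went from 31.27 and 35.01 to 5.62 and 6.17 CPM in BAC. In 3T3-L1 Runx2 went from 63.4 and 63.9 to 14.5 and 14.9 CPM. Tnmd went from 22.5 and 20.8 to 1.62 and 0.931 CPM in 3T3-L1, and Mkx from 44.97 and 41.63 to 28.03 and 33.16 CPM. In BAC Tnmd, tested through day 0 alone, went from 87 and 84 counts to 1 and 0. Summed levels of immune markers stayed between 3.01 and 9.75 CPM, with Ptprc and Adgre1 at 0 counts throughout, and those of epithelial markers stayed under 3 CPM. Endothelial markers went from between 17.4 and 18.8 CPM to between 0.120 and 0.846 CPM in BAC, mostly Kdr, and were at 3.60 CPM or less in 3T3-L1, while Pecam1 and Cdh5 had at most 5 counts in a BAC library. Skeletal muscle markers went from at most 4.96 CPM to between 46.1 and 48.0 CPM across lines, mainly Des, with Myod1 at 0 counts. The part of these cells in the results was not tested.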

How the data were processed

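Poly(dT)-enriched mRNA of 8 libraries was sequenced on DNA nanoballs. The deposited values are raw counts, whole numbers per gene symbol, in a separate table for each line and without normalization. STAR and HTSeq are given in the methods of the study, but the notes of the submitters list Bowtie2, RSEM 1.3.1 and DESeq2 1.4.5, with build mm10, so the counter is uncertain, and no source read here gives the strand. For BAC, 27 rows named by a date were left out (up to 0.316% of a library).

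The main test was edgeR 4.0.16 (R 4.3.3), quasi-likelihood and two-sided, with TMM factors, filterByExpr (minimum count 10) and Benjamini-Hochberg adjustment over all genes tested at 0.05. Each line was fitted by itself, and the difference in change came from 1 fit over 8 libraries. DESeq2 1.42.0, other scalings, no filter, a replicate block, a joint fit of both lines and leaving out each library were tried. The fits were tested on simulated counts. Standard errors derive from the test statistic, as the absolute log2 change over the square root of F. They can understate the counting error of any gene with few counts in a group. Lengths are those of the GENCODE principal transcript.

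The 9 genes and all lists were chosen with earlier results of these data known. All 9 genes are named. For each list, up to 3 genes with the largest change past the test and a mean log2 CPM of at least 3 in a line are named, plus the largest change against the majority, with the values of both lines where tested, and marker lists of other tissues are given as counts and summed levels, with genes of the tendon, cartilage and bone list named in both directions after their values were seen. For each of the 9 genes the nearest gene in both changes is named (same minimum, predicted genes left out).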

Additional observations from a re-analysis of the deposited data

Results flagged for a closer look

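Changes that differed between the lines by the test of the difference itself, BAC minus 3T3-L1 on the log2 scale, were -2.26 for Bgn, -2.67 for Lum, -3.69 for Fmod, -3.49 for Ogn, 0.74 for Prelp, -2.49 for Aspn and -3.70 for Omd. Lum fell in BAC, and its small change in 3T3-L1 was 0.31 with TMM factors, 0.15 with upper-quartile factors (edgeR adjusted p = 0.0575) and 0.018 with library size alone (edgeR adjusted p = 0.821), so no opposite direction is claimed for it. The values of Fmod and Omd rest on 5 and 3 counts in BAC at day 4. Line, count table and day of sampling (4 and 6) cannot be told apart in any of them.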

How the results depend on the processing

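Of the log2 changes and differences recomputed for the 9 genes, 266 kept their direction and side of the threshold and 13 did not. Of the recomputed counts of genes called, 119 lay within 1.5 times of the reported count (50 equalled it) and 5 did not. Leaving out 1 library gave 7 to 8 of the 9 genes lower in BAC, 5 to 6 lower in 3T3-L1 and 6 to 7 with a lower change in BAC. With library size alone, Lum in 3T3-L1 was 0.018 (adjusted p = 0.821), and with upper-quartile factors 0.15 (adjusted p = 0.0575), so that 1 gene rather than 2 was higher there under each. Library size alone moved the median of all genes by -0.26 in BAC and -0.29 in 3T3-L1. With DESeq2, Podn in BAC was -0.70 (adjusted p = 0.0927) and the Prelp difference 0.81 (adjusted p = 0.0999), and with no filter the Prelp difference was 0.74 (adjusted p = 0.115). The number of genes with a higher change in BAC was then 0 with DESeq2, with no filter and without BAC day 4 replicate 1, and 1 otherwise.

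Leaving out each library in turn gave log2 changes from -0.88 to -0.51 for Podn in BAC, from -0.28 to 0.19 for Podn in 3T3-L1, where the sign turned without day 0 replicate 3, and from -1.998 to -1.31 for Omd in 3T3-L1. The differences between lines ranged from -0.50 to -0.054 for Dcn, from 0.28 to 1.09 for Prelp and from -0.90 to -0.43 for Podn. Calls of the other genes held in these runs.

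The replicate numbers of BAC were not taken to pair the libraries (2 pairs, r = 0.05 between their deviations). With the replicate block no call among the 9 genes changed in BAC, for example -2.42 for Dcn, 2.54 for Prelp and -0.68 for Podn. No paired analysis was possible for 3T3-L1 because its groups share only 1 replicate number. Depth limits Omd and Fmod in BAC at day 4, with 3 and 5 counts. For the list genes named, 1141 recomputed values kept their call and 22 lost it in the same direction. The cause of each change was not tested.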

Other observations

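Genes of fat storage rose as most of the small proteoglycans fell. Over all tested genes, 39.1% were higher in BAC and 39.8% in 3T3-L1. Of 15 general adipogenesis genes, 14 were higher and 1 lower at the later day in each line (edgeR adjusted p under 0.05), with a median log2 change of 5.95 in BAC and 6.69 in 3T3-L1. Cfd, the secreted protease adipsin, went from 0.0901 and 0.452 CPM to 1198 and 1453 CPM in BAC and from 0.0947 and 0 CPM to 2797 and 2609 CPM in 3T3-L1. In BAC the next largest rises were those of Cidec, which enlarges lipid droplets, by 8.75 ± 0.18, and Cd36, a fatty acid importer, by 7.76 ± 0.19, and in 3T3-L1 that of Adipoq, which encodes adiponectin, by 12.36 ± 0.12, all on the log2 scale. Plin1, the coat protein of lipid droplets, went from 3.51 and 3.71 CPM to 658 and 607 CPM in BAC and from 0.757 and 0.474 CPM to 1585 and 1481 CPM in 3T3-L1. Cfd in both lines and Plin1 in 3T3-L1 passed the filter on low counts through the later day alone and had to come out higher. Cebpd, an early regulator of the programme, was the gene that fell, with log2 changes of -0.65 ± 0.11 and -1.04 ± 0.11.

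Among preadipocyte genes, S100a4, a calcium-binding protein of fibroblasts, fell in BAC (log2 change -7.07 ± 0.14) and in 3T3-L1 (-3.11 ± 0.06), Dlk1, an inhibitor of adipogenesis, fell likewise (-5.54 ± 0.13 and -3.11 ± 0.06), and so did the surface protein Thy1 (-3.13 ± 0.17 and -2.55 ± 0.07). Cd34, a surface marker of precursor cells, went from 30.7 and 28.95 CPM to 0.120 and 0.363 CPM in BAC. Dpt, which encodes dermatopontin, a matrix protein that binds decorin, went from 77.9 and 81.6 CPM to 1.08 and 1.09 CPM in BAC and from 122 and 101 CPM to 75.2 and 71.4 CPM in 3T3-L1, and the difference of its changes was -5.61 ± 0.22 (edgeR adjusted p = 1.31e-16). In BAC, Cd34 and Dpt passed the filter through day 0 alone.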
